A study of Mus musculus with 8 samples.

Results

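Genes of cholesterol and fatty acid synthesis were followed in mouse kidney at postnatal day 3, in animals with Yap1 gain of function in the distal nephron and in their controls. The set held 33 genes out of 35976 gene symbols in the expression table. They were chosen by name as enzymes of the 2 pathways, proteins that regulate them and a sterol carrier. The set was split into a sterol arm of 18 enzymes, a fatty acid arm of 9 enzymes and a group of 6 regulators. The sterol carrier, Stard4, was counted with the regulators. All 33 are protein-coding genes that passed the filter on low values. The mutant genotype is labelled Slc12a3 Cre/+; C1 YAP/+ and the control genotype Slc12a3 Cre/+; C1 +/+. Both therefore carry the Cre allele at Slc12a3, the gene of the sodium chloride cotransporter of the distal convoluted tubule, while whole kidneys were sequenced. The labels do not explain C1. Each genotype had 4 libraries, 2 male and 2 female, with replicate number 1 or 2 in each sex. The labels do not say whether these libraries came from separate animals, so p-values measure only the spread between libraries, which may be technical.

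Cholesterol is built from acetyl-CoA in the cytosol and the endoplasmic reticulum. An upper stretch of enzymes leads through mevalonate to farnesyl diphosphate, and a lower stretch joins farnesyl units into squalene, closes the rings and trims the product, lanosterol, to cholesterol. Fatty acid synthesis draws on the same acetyl-CoA, which ATP citrate lyase makes in the cytosol from mitochondrial citrate, and uses NADPH. Elongases and desaturases then reshape the chains. Both pathways are transcribed under SREBP factors, which the escort protein SCAP carries out of the endoplasmic reticulum when sterols are low and which INSIG proteins retain when sterols are plentiful. In the developing kidney these lipids go into the membranes of growing tubule cells, among them the brush border of the proximal tubule.

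The promoters of 5 sterol enzymes that differed between genotypes and of Hmgcs1, which carries a match to the classical sterol regulatory element, are shown because SREBP-2 is known to act on such genes together with the factors NF-Y and Sp1. Each line holds the 150 bases before the RefSeq start site on build GRCm38.p6, written 5′ to 3′ on the gene's own strand. Capitals mark matches on either strand to the sterol regulatory element TCACNCCAC, the NF-Y box CCAAT or the E-box CACGTG.
Tm7sf2 (chr19:6067851-6068000, minus strand): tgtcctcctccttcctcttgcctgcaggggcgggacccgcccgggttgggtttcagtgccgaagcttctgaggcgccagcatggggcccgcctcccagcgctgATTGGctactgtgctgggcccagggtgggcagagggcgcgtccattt
Ebp (chrX:8193513-8193662, minus strand): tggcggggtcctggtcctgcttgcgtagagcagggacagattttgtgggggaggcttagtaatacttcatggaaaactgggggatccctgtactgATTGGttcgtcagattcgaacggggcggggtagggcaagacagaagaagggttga
Nsdhl (chrX:72918371-72918520, plus strand): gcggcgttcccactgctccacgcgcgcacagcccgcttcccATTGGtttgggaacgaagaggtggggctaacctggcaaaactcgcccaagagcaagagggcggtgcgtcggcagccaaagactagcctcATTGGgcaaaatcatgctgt
Mvd (chr8:122443423-122443572, minus strand): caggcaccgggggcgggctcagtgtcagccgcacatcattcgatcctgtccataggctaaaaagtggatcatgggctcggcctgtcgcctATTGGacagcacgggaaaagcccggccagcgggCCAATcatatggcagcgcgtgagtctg
Sc5d (chr9:42264301-42264450, minus strand): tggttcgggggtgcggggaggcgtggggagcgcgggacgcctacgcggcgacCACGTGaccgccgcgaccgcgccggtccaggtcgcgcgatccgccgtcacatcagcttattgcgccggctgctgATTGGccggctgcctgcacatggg
Hmgcs1 (chr13:119690201-119690350, plus strand): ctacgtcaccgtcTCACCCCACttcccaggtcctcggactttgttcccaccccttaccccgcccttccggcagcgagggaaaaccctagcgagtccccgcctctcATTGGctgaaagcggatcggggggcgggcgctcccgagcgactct
Every one of these 6 windows holds at least 1 CCAAT box, but they leave out some sterol enzymes that differed between genotypes. Acat2 and Dhcr7, which fell and are not printed, held no CCAAT box in the longer windows described next. Hmgcs1 has the element TCACCCCAC at positions -137 to -129 relative to its start. Over the full windows, from 250 bases before to 50 bases after the start, 26 of the 33 genes had an entry. Those without one were Fdps, Fdft1, Sqle, Scd1, Scd2, Fads1 and Stard4. The NF-Y box was present in 19 of the 26 windows (73.1%), against 37.9% of 27025 gene promoters searched the same way. The Sp1 box GGGCGG was present in 20 of 26 (76.9%), against 35.9% of all promoters. The arms differed in these counts, with the NF-Y box in 13 of 15 sterol, 2 of 6 fatty acid and 4 of 5 regulator windows. The exact sterol element was found in Hmgcs1 alone (1.22% of all promoters) and the E-box in Sc5d, Hsd17b7, Insig1 and Scap (7.24% of all promoters). Among the 9 genes that fell and had a window, 5 held the NF-Y box, and among 16 that did not pass the test, 13 did. These matches describe letters in a window and were not tested against the expression values.

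Sequencing depth was 78.2 to 87.1 M reads in the replicate 1 libraries and 22.8 to 25.2 M reads in the replicate 2 libraries, so replicate number and depth coincide and each depth holds 1 library of every group. Levels are scaled RPKM, the reads of a gene per kilobase of its length and per M reads of the library, divided by a library scaling factor, and differences are mutant minus control on the log2 (scaled RPKM + 0.1) scale. Differences were tested with limma, with sex as a covariate and Benjamini-Hochberg adjustment over all 18156 genes tested. At an adjusted p under 0.05, 4745 genes (26.1%) differed between genotypes, of which 2390 (13.2%) rose and 2355 (13.0%) fell, with a median log2 difference over all genes of 0.006. Yap1 itself had 35.3, 36.6, 35.5 and 34.7 RPKM in mutant libraries, against 30.6, 37.5, 34.4 and 39.7 RPKM in control libraries (log2 difference 0.01 ± 0.09 SE, adjusted p = 0.973). The labels do not give the species of the transgene, and the Yap1 row does not separate the genotypes. Slc12a3, the gene that carries Cre, averaged 1.41 ± 0.42 RPKM in mutant and 14.1 ± 1.96 RPKM in control libraries (SD, n = 4 each). Values by library follow the order male 1, male 2, female 1, female 2, where the number is the replicate number.

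Of the 33 genes, 10 fell (30.3%), 2 rose and 21 did not pass the test, so 36.4% were called, beside 26.1% of all genes and 13.0% called lower. The sterol arm held most of the calls, with 7 of its 18 enzymes lower, 2 higher and 9 not past the threshold. In the fatty acid arm 2 of 9 enzymes fell and none rose. In the regulator group 1 of 6 genes fell, the sterol carrier Stard4, and none rose. Median log2 differences were -0.14 in the sterol arm, -0.17 in the fatty acid arm and -0.12 among the regulators. All 4 mutant libraries lay below all 4 control libraries for 9 genes and above them for 3, while the libraries of 21 genes overlapped. Over all genes tested, 30.5% did not overlap, 14.8% with mutants below and 15.7% with mutants above. In whole-kidney RNA, fewer cells of a type and less RNA per cell cannot be told apart.

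**Figure D1:**
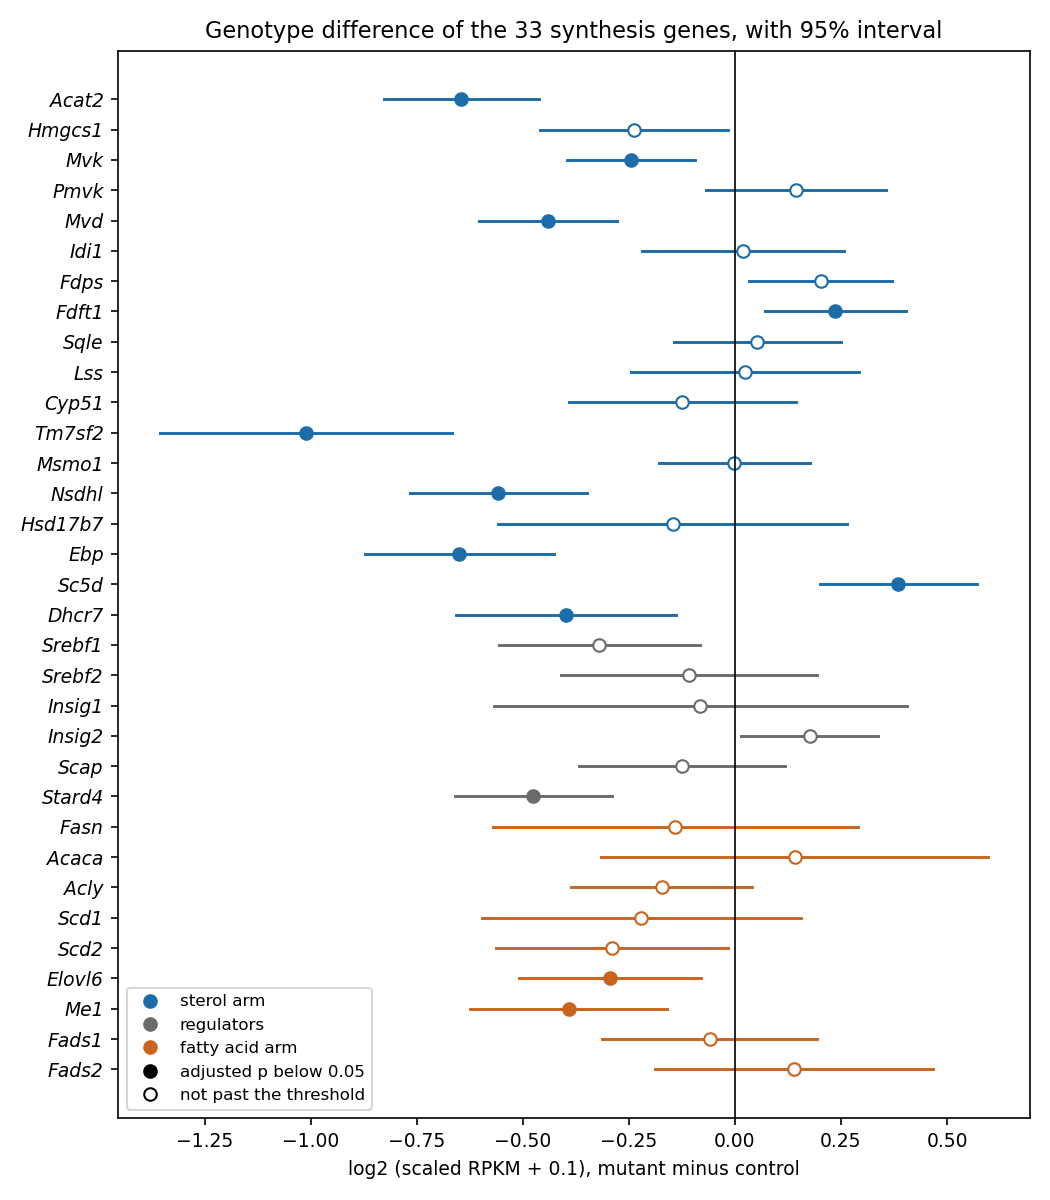
Log2 difference (mutant minus control) of each of the 33 genes with its 95% interval from limma, 8 libraries, in pathway order with sterol enzymes at the top. Filled points passed an adjusted p of 0.05; the 5 filled points farthest to the left are Tm7sf2, Ebp, Acat2, Nsdhl and Stard4.

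The upper stretch of the sterol arm, from acetyl-CoA to farnesyl diphosphate, held 3 genes that fell, none that rose and 4 that did not pass. Acat2, the cytosolic thiolase that joins acetyl-CoA units, had 21.7, 21.5, 21.1 and 23.1 RPKM in mutant libraries, against 29.5, 35.0, 35.0 and 37.8 RPKM in control libraries. The groups were far apart, and the lowest value of the controls, in male control 1, exceeded every mutant value. Acat2 was 1.56-fold lower in mutants (log2 difference -0.64 ± 0.08 SE, adjusted p = 0.000558), and lower both among replicate 1 libraries (-0.59) and among replicate 2 libraries (-0.70). This gene shares sequence with neighbours on chromosome 17: 45.9% of the 50-base stretches of its longest transcript also occur in other genes, mainly Acat3 and Tcp1. The sources used here do not say how the authors' counting treated such reads. Acat3 averaged 26.5 ± 1.86 RPKM in mutant and 23.3 ± 1.24 RPKM in control libraries (SD, n = 4 each) and did not pass the test (adjusted p = 0.120).

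Mvd, which decarboxylates mevalonate diphosphate to the isoprenoid unit, had 18.9, 16.8, 19.6 and 18.4 RPKM in mutant libraries, against 25.0, 25.9, 25.0 and 24.1 RPKM in control libraries. No library of either genotype came near the other group. The difference was 1.36-fold lower in mutants (log2 -0.44 ± 0.07 SE, adjusted p = 0.00228). Mvk, the mevalonate kinase, had 17.3, 16.6, 15.8 and 17.9 RPKM in mutant libraries, against 19.98, 20.04, 19.8 and 20.3 RPKM in control libraries. Its controls lay within 0.216 RPKM SD of their mean of 20.03 RPKM, and its mutants averaged 16.9 ± 0.93 RPKM (SD, n = 4). This smaller fall (log2 -0.24 ± 0.07 SE, adjusted p = 0.0258) kept its call in 2 of the 8 fits that left out 1 library, with adjusted p up to 0.0835 in the others.

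The other 4 genes of the upper stretch did not pass. Hmgcs1, the cytosolic HMG-CoA synthase and the most abundant of the sterol enzymes, had 50.5, 51.4, 48.0 and 53.9 RPKM in mutant libraries, against 59.5, 66.6, 50.6 and 65.1 RPKM in control libraries. Female control 1 lay among the mutants while the other 3 controls lay above them, and the log2 difference was -0.24 ± 0.10 SE (adjusted p = 0.112). Among the 8 fits that left out 1 library, Hmgcs1 passed in 1, that without female control 1 (adjusted p = 0.0379 in limma). In the others its adjusted p was up to 0.275. Fdps, the farnesyl diphosphate synthase that closes this stretch, lay higher in every mutant library, at 46.6, 43.8, 43.2 and 46.1 RPKM, against 35.3, 40.9, 40.8 and 39.4 RPKM in control libraries. Its log2 difference of 0.20 had an adjusted p of 0.0810 in limma, and 26.7% of its GENCODE exonic bases overlap Gm43738 on the same strand. The deposited length of Fdps is 1461 bases, against 2953 in its longest GENCODE transcript, so the gene model counted was another one. Pmvk, the phosphomevalonate kinase, averaged 22.1 ± 0.73 RPKM in mutant and 20.04 ± 2.34 RPKM in control libraries (SD, n = 4 each, adjusted p = 0.307 in limma). Idi1, the isopentenyl diphosphate isomerase, averaged 5.48 ± 0.56 RPKM in mutant and 5.41 ± 0.52 RPKM in control libraries (SD, n = 4 each), with a 95% interval of the log2 difference of -0.22 to 0.26.

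The lower stretch, from squalene to cholesterol, held 4 genes that fell, 2 that rose and 5 that did not pass, and the largest difference of the 33 genes. Tm7sf2, a sterol reductase of the endoplasmic reticulum that acts just after Cyp51, had 6.47, 4.64, 4.63 and 6.67 RPKM in mutant libraries, against 10.1, 11.8, 12.9 and 10.4 RPKM in control libraries. The highest mutant library was still well below the lowest control library. Tm7sf2 was 2.02-fold lower in mutants (log2 -1.01 ± 0.15 SE, adjusted p = 0.00147), at -1.04 within replicate 1 and -0.98 within replicate 2. The gene lies on chromosome 19 (6062821 to 6068373, minus strand, GRCm38), and 12.1% of its GENCODE exonic bases overlap Vps51 on the same strand. The deposited length of Tm7sf2 is 1479 bases, against 3083 in its longest GENCODE transcript, so the gene model counted was another one. Vps51 averaged 14.9 ± 0.48 RPKM in mutant and 14.9 ± 0.98 RPKM in control libraries (SD, n = 4 each, adjusted p = 0.999 in limma).

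Nsdhl and Ebp act on neighbouring steps after Tm7sf2 and both lie on the X chromosome. Nsdhl, a dehydrogenase that helps strip methyl groups from the ring, had 20.7, 20.5, 19.4 and 22.5 RPKM in mutant libraries, against 26.2, 32.6, 33.3 and 30.7 RPKM in control libraries. Ebp, the isomerase that shifts the ring double bond, had 14.2, 13.8, 12.4 and 14.6 RPKM in mutant libraries, against 18.4, 23.3, 21.7 and 23.2 RPKM in control libraries. For both genes the mutants were tightly grouped below all controls, and male control 1 was the lowest control. Nsdhl was 1.47-fold lower (log2 -0.56 ± 0.09 SE, adjusted p = 0.00239) and Ebp 1.57-fold lower in mutants (log2 -0.65 ± 0.10 SE, adjusted p = 0.00149). Both were lower in each sex, Nsdhl by log2 values of -0.50 in males and -0.61 in females, and Ebp by -0.57 in males and -0.73 in females.

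Dhcr7, the reductase of the last step from dehydrocholesterol to cholesterol, had 8.04, 7.18, 7.05 and 6.89 RPKM in mutant libraries, against 7.70, 9.92, 10.6 and 10.6 RPKM in control libraries. Here male mutant 1 lay above male control 1, so the groups overlapped. Dhcr7 fell by 0.40 on the log2 scale (0.11 SE, adjusted p = 0.0325), by 0.26 within replicate 1 and by 0.54 within replicate 2. Its call was lost in 6 of the 8 fits without 1 library, with adjusted p up to 0.0992, and the adjusted p was 0.00292 without male control 1.

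Sc5d and Fdft1 were the genes that rose. Sc5d, the desaturase that acts just before Dhcr7, had 6.12, 6.30, 6.13 and 6.79 RPKM in mutant libraries, against 5.11, 5.16, 4.43 and 4.63 RPKM in control libraries. Every mutant library lay above every control library, a 1.31-fold difference (log2 0.39 ± 0.08 SE, adjusted p = 0.00859). It had the same sign within replicate 1 (0.36, adjusted p = 0.0964) and replicate 2 (0.41, adjusted p = 0.109), neither of which passed alone. Fdft1, the squalene synthase at the entry of the sterol branch, had 7.85, 7.41, 7.19 and 7.69 RPKM in mutant libraries, against 6.05, 6.83, 6.46 and 6.19 RPKM in control libraries. The groups did not overlap, yet the call (log2 0.24 ± 0.07 SE, adjusted p = 0.0436) was lost in each of the 8 fits without 1 library, at adjusted p of 0.0603 to 0.125. In GENCODE, Fdft1 overlaps Ctsb on the opposite strand over 774 bases, or 18.3% of its exonic bases. The deposited length of Fdft1 is 8769 bases, so its reads were counted on another gene model. The sources used here give no strand setting for the counting, and without it reads of the pair cannot be told apart. Ctsb averaged 122 ± 9.51 RPKM in mutant and 110 ± 7.90 RPKM in control libraries (SD, n = 4 each, adjusted p = 0.272 in limma).

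**Figure D2:**
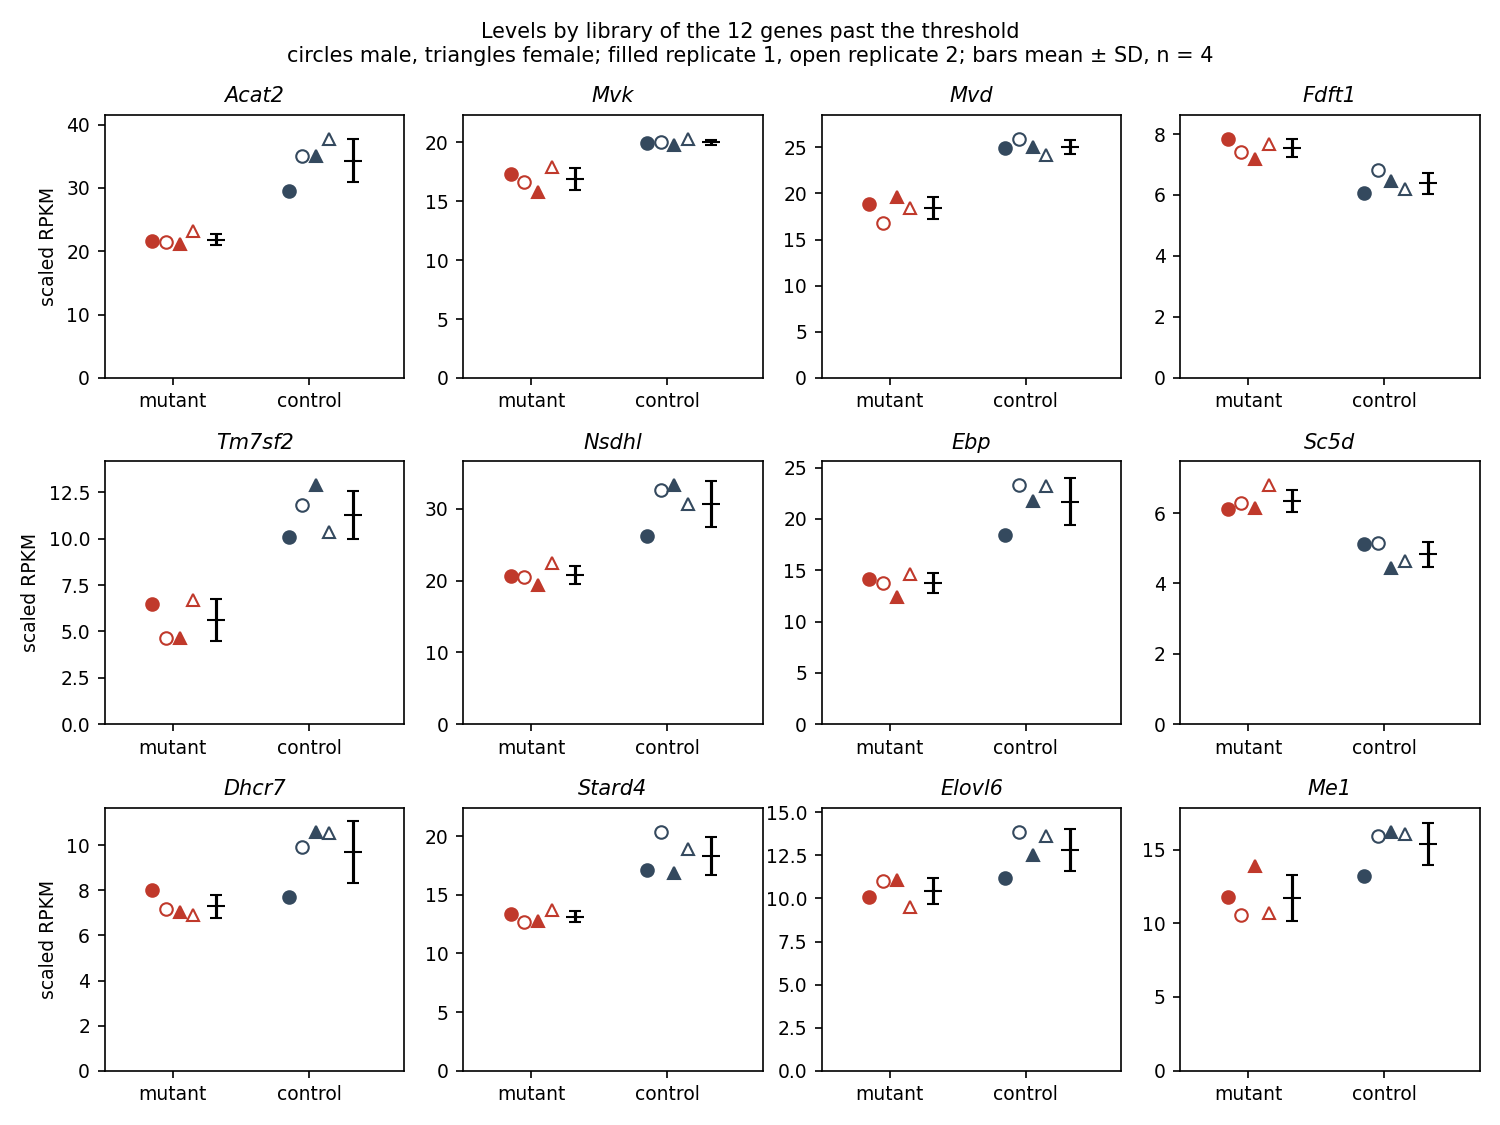
Scaled RPKM in each library of the 12 genes past the threshold, mutants on the left and controls on the right of each panel, with mean ± SD (n = 4). Mutants and controls overlap for Dhcr7 and Me1 and are separate for the other 10 genes, with mutants above controls for Fdft1 and Sc5d.

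The other 5 enzymes of the lower stretch did not pass. Sqle, the squalene epoxidase, averaged 34.7 ± 1.89 RPKM in mutant and 33.5 ± 2.98 RPKM in control libraries (SD, n = 4 each), with a 95% interval of the log2 difference of -0.14 to 0.25. Lss, the cyclase that makes lanosterol, averaged 4.37 ± 0.27 RPKM in mutant and 4.32 ± 0.62 RPKM in control libraries (SD, n = 4 each), with an interval of -0.24 to 0.29. Msmo1, the methyl sterol oxidase that works with Nsdhl, averaged 32.2 ± 1.97 RPKM in mutant and 32.2 ± 2.07 RPKM in control libraries (SD, n = 4 each), with an interval of -0.18 to 0.18. The libraries of both genotypes were interleaved for these 3 enzymes. Cyp51, the lanosterol demethylase, averaged 24.2 ± 3.32 RPKM in mutant and 26.4 ± 2.84 RPKM in control libraries (SD, n = 4 each, adjusted p = 0.497 in limma). Hsd17b7, the ketoreductase partner of Nsdhl and Msmo1, averaged 3.88 ± 0.61 RPKM in mutant and 4.37 ± 1.07 RPKM in control libraries (SD, n = 4 each, adjusted p = 0.612 in limma). Intervals of Sqle and Msmo1 thus hold no log2 difference beyond 0.25 in size, while that of Hsd17b7 reaches from -0.56 to 0.27. The demethylation partners Nsdhl and Msmo1 differed in outcome, Nsdhl falling and Msmo1 giving a log2 difference of 0.00, but the difference between them was not tested.

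Of the 6 genes in the regulator group Stard4 alone passed. Stard4, a sterol carrier that moves cholesterol between membranes and is itself a known SREBP target, had 13.3, 12.7, 12.8 and 13.7 RPKM in mutant libraries, against 17.1, 20.4, 16.9 and 18.9 RPKM in control libraries. The groups were separate, with controls more spread than mutants. Stard4 was 1.39-fold lower in mutants (log2 -0.48 ± 0.08 SE, adjusted p = 0.00301), at -0.38 within replicate 1 and -0.57 within replicate 2.

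Srebf1, which encodes the SREBP factor best known for fatty acid genes, had 8.47, 7.74, 6.76 and 7.80 RPKM in mutant libraries, against 8.48, 10.7, 9.03 and 10.3 RPKM in control libraries. Male mutant 1 and male control 1 had nearly the same value, and no mutant library reached the lowest control. Its log2 difference of -0.32 ± 0.10 SE just missed the threshold (adjusted p = 0.0522 in limma). Among the 8 fits that left out 1 library, Srebf1 passed in 1, that without male control 1 (adjusted p = 0.0121). In the others its adjusted p was up to 0.151. Srebf2, whose SREBP factor is best known for sterol genes, averaged 24.2 ± 1.22 RPKM in mutant and 26.4 ± 4.84 RPKM in control libraries (SD, n = 4 each, adjusted p = 0.609 in limma). Scap, the escort protein, averaged 12.2 ± 0.58 RPKM in mutant and 13.4 ± 1.86 RPKM in control libraries (SD, n = 4 each, adjusted p = 0.447 in limma).

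Neither gene of the retention proteins passed. Insig1, itself a SREBP target, had 10.7, 11.3, 12.1 and 18.7 RPKM in mutant libraries, against 13.9, 18.6, 11.7 and 11.4 RPKM in control libraries. One library per genotype stood high, female mutant 2 and male control 2, and the log2 difference was -0.08 (adjusted p = 0.825). Insig2 averaged 10.7 ± 0.56 RPKM in mutant and 9.44 ± 0.54 RPKM in control libraries (SD, n = 4 each, adjusted p = 0.105 in limma). Insig1 was the only one of the 33 genes whose genotype difference differed between the sexes at an unadjusted p under 0.05, with log2 differences of -0.54 in males and 0.38 in females. In limma this interaction had an adjusted p of 0.948. No gene passed this interaction after adjustment, by limma on the log scale, and 554 of all genes tested (3.05%) had an unadjusted p under 0.05. None of the 33 passed it with limma-voom on recovered reads either. All 10 genes that fell were lower in both sexes.

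**Figure D3:**
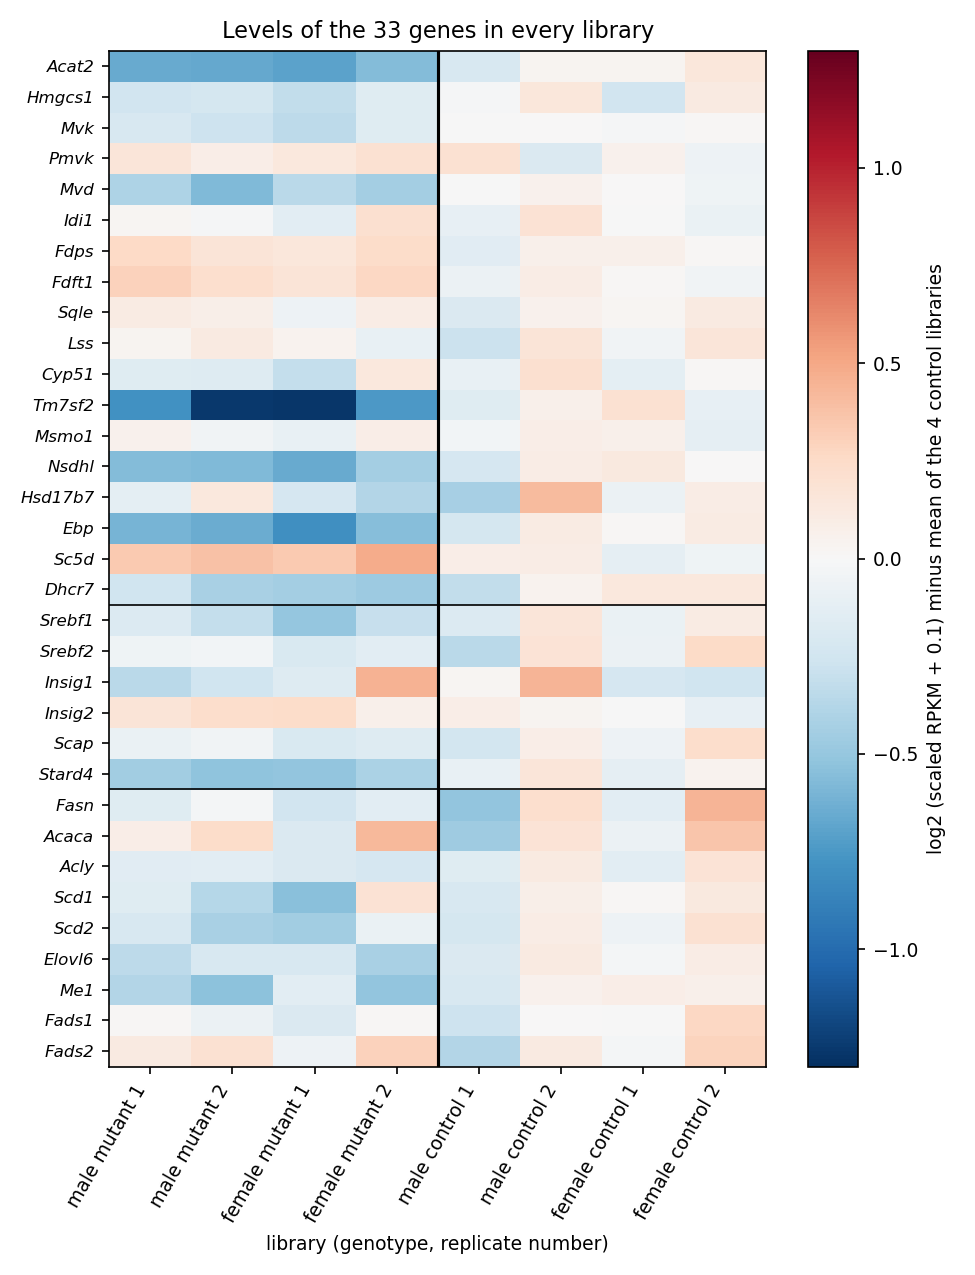
Log2 (scaled RPKM + 0.1) of the 33 genes in each library, relative to the mean of the 4 control libraries, with 4 mutant columns on the left and 4 control columns on the right; lines divide sterol enzymes (top), regulators and fatty acid enzymes (bottom). Tm7sf2, Acat2, Ebp and Nsdhl are blue across the mutant columns, while male control 1 is pale or blue for most fatty acid genes, with a median of -0.23 over that arm.

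Most of the fatty acid arm overlapped between genotypes. Me1, the malic enzyme that supplies cytosolic NADPH, had 11.8, 10.6, 13.9 and 10.7 RPKM in mutant libraries, against 13.2, 16.0, 16.2 and 16.1 RPKM in control libraries. Female mutant 1 lay above male control 1, and the other mutants lay below all controls. Me1 was 1.31-fold lower in mutants (log2 -0.39 ± 0.10 SE, adjusted p = 0.0218), at -0.20 within replicate 1 (adjusted p = 0.268) and -0.59 within replicate 2 (adjusted p = 0.00746). Its call was lost without male mutant 2, female mutant 2, male control 2 or female control 1, at adjusted p of 0.0573 to 0.0723. In Me1, 32.8% of the 50-base stretches of the longest transcript also occur in other genes.

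Elovl6, the elongase that takes palmitate to stearate, had 10.1, 11.03, 11.05 and 9.49 RPKM in mutant libraries, against 11.2, 13.9, 12.6 and 13.7 RPKM in control libraries. The groups came close without overlapping. Its log2 difference of -0.30 ± 0.09 SE was at the edge of the threshold (adjusted p = 0.0496), and the call held in 1 of the 8 fits without 1 library, that without male control 1.

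The core of the arm, Acly, Acaca and Fasn, did not pass. Acly, the citrate lyase and the most abundant gene of the set beside Hmgcs1, had 52.5, 53.1, 51.2 and 50.3 RPKM in mutant libraries, against 52.4, 63.1, 53.2 and 66.0 RPKM in control libraries. Its mutants agreed closely, while its controls split by replicate number, both replicate 2 libraries standing high (log2 difference -0.17, adjusted p = 0.223). Fasn, the synthase that builds palmitate, had 6.55, 7.22, 6.14 and 6.67 RPKM in mutant libraries, against 5.09, 8.53, 6.64 and 9.96 RPKM in control libraries, with the same split (log2 difference -0.14, adjusted p = 0.646). Acaca, the acetyl-CoA carboxylase of the committed step, had 1.72, 1.93, 1.41 and 2.19 RPKM in mutant libraries, against 1.14, 1.84, 1.53 and 2.11 RPKM in control libraries. Its 95% interval was wide, -0.32 to 0.60 on the log2 scale, and 52.6% of the 50-base stretches of its longest transcript also occur in another gene, Gm5182.

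The desaturases did not pass either. Scd2, the stearoyl-CoA desaturase and the more abundant of its pair here, had 40.5, 34.8, 34.1 and 44.1 RPKM in mutant libraries, against 39.7, 50.01, 44.6 and 53.6 RPKM in control libraries (log2 difference -0.29 ± 0.12 SE, adjusted p = 0.115). Scd1, its paralog, was far lower at 1.49 ± 0.36 RPKM in mutant and 1.72 ± 0.18 RPKM in control libraries (SD, n = 4 each, adjusted p = 0.380 in limma). Fads1, which desaturates polyunsaturated chains near the carboxyl end, averaged 26.6 ± 1.75 RPKM in mutant and 28.0 ± 4.30 RPKM in control libraries (SD, n = 4 each, adjusted p = 0.748 in limma). Fads2, which starts that desaturation, averaged 25.4 ± 2.72 RPKM in mutant and 23.3 ± 4.43 RPKM in control libraries (SD, n = 4 each, adjusted p = 0.539 in limma).

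The genotype difference was also taken within each replicate number. In the fatty acid arm the median log2 difference was -0.03 among replicate 1 and -0.32 among replicate 2 libraries, and 8 of its 9 genes were more negative in replicate 2. In the sterol arm the medians were -0.08 in replicate 1 and -0.19 in replicate 2, and among regulators -0.08 in replicate 1 and -0.28 in replicate 2. The levels were also set side by side by replicate number. In mutants, both replicate 2 libraries lay above both replicate 1 libraries for 5 of the 33 genes, beside 16.5% of all genes tested. In controls this held for 20 of the 33 genes, including 8 of 9 fatty acid genes, beside 27.9% of all genes tested. This split was not tested. Over the fatty acid arm, the median level relative to the control mean was -0.16, -0.14, -0.19 and -0.08 in the mutant libraries and -0.23, 0.11, -0.03 and 0.20 in the control libraries. Depth and anything else tied to the replicate number cannot be told apart here. Of the 12 genes called, 4 passed among replicate 1 libraries alone (Acat2, Tm7sf2, Nsdhl and Ebp) and 8 among replicate 2 libraries alone. Over all genes tested, 18.1% passed in replicate 1 alone and 17.1% in replicate 2 alone. The 12 genes were picked by a fit that holds these same libraries, so their counts cannot be compared with those shares.

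**Figure D4:**
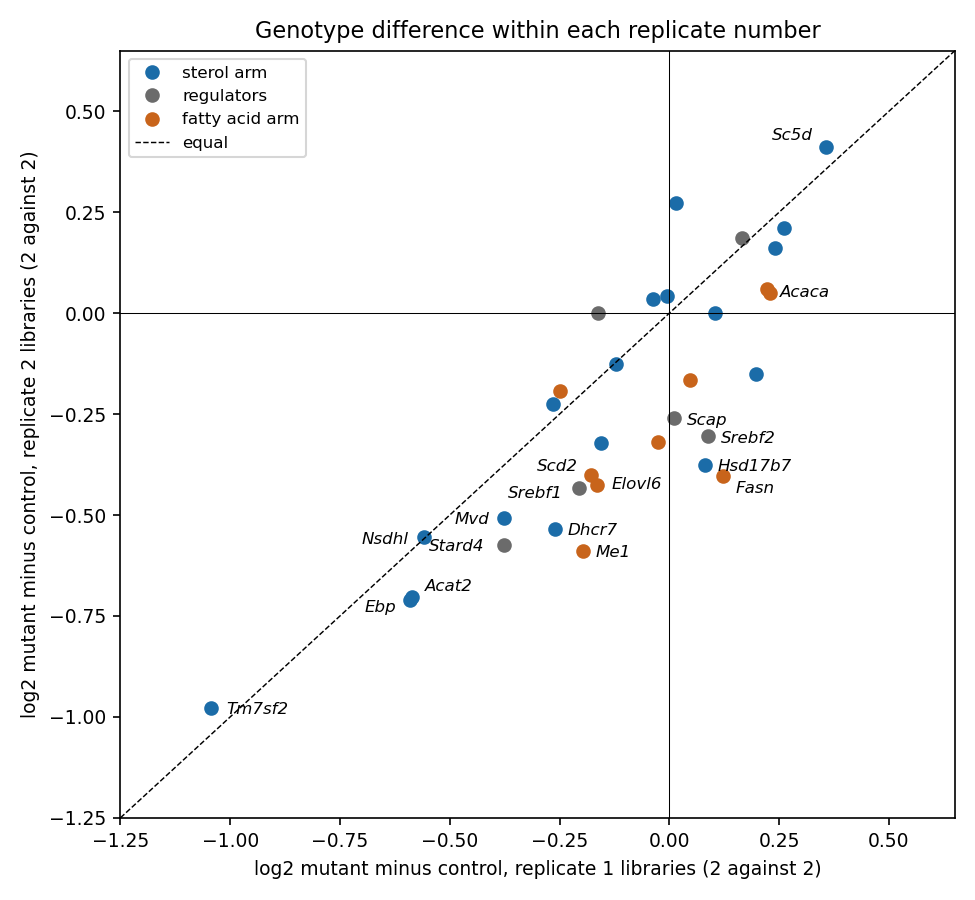
Log2 difference (mutant minus control) of each of the 33 genes in replicate 1 libraries (horizontal) and replicate 2 libraries (vertical), 2 against 2 in each. Tm7sf2 and Nsdhl lie near the dashed line of equal values, while 23 of the 33 genes, among them 8 of 9 fatty acid genes, lie below it.

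Ratios within a library, which cancel its overall scale, were compared for 4 pairs of genes with related roles by an exact two-sided permutation test over the 8 libraries. Lbr, the lamin B receptor, catalyses the same reduction as Tm7sf2 and had 12.5, 12.4, 11.3 and 12.0 RPKM in mutant libraries, against 9.17, 11.8, 10.4 and 12.4 RPKM in control libraries (adjusted p = 0.369 in limma). The log2 ratio of Tm7sf2 over Lbr averaged -1.11 ± 0.26 in mutant and 0.05 ± 0.24 in control libraries (SD, n = 4 each), lower in every mutant library than in any control library. Its exact p of 0.0286 is the smallest this test can give with 4 libraries a group, and its value adjusted over the 4 pairs was 0.114. Srebf1 over Srebf2 averaged -1.64 ± 0.09 in mutant and -1.43 ± 0.13 in control libraries (SD, n = 4 each, exact p = 0.0571, adjusted 0.114). Neither Insig1 over Insig2, at 0.27 ± 0.43 in mutant and 0.53 ± 0.28 in control libraries (SD, n = 4 each, exact p = 0.371), nor Scd1 over Scd2, at -4.62 ± 0.15 in mutant and -4.69 ± 0.07 in control libraries (SD, n = 4 each, exact p = 0.486), passed; both adjusted to 0.486.

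**Figure D5:**
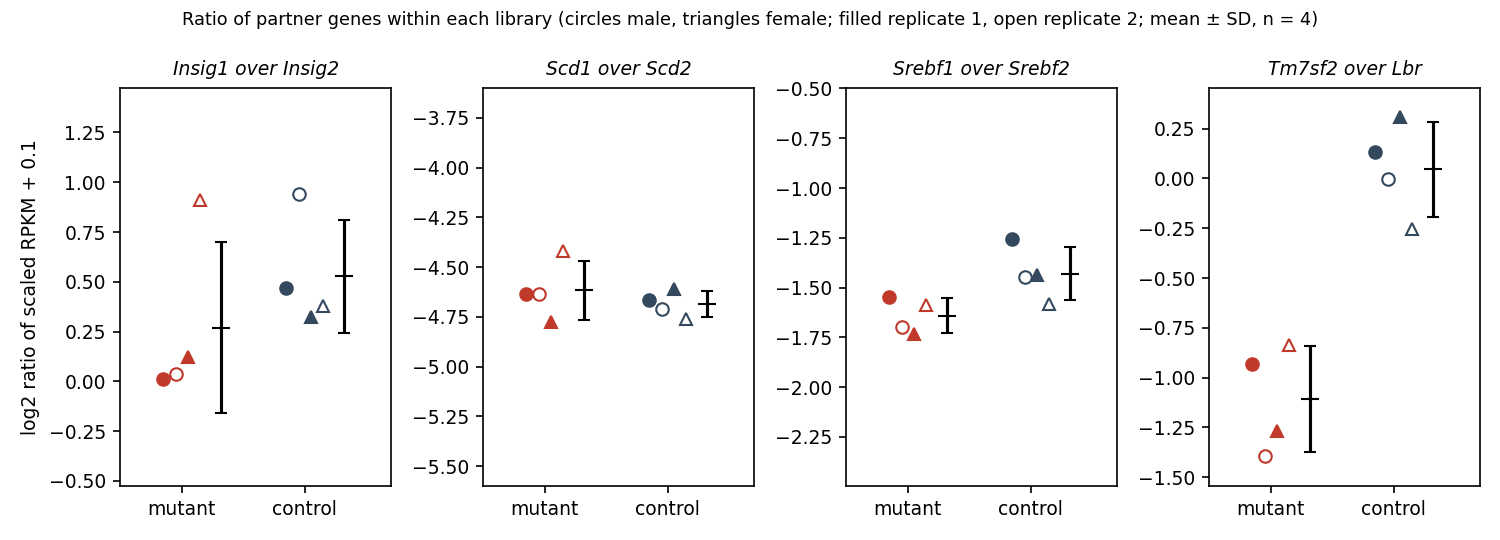
Log2 ratio of scaled RPKM + 0.1 within each library for 4 gene pairs, mutants on the left and controls on the right of each panel, with mean ± SD (n = 4). In the panel of Tm7sf2 over Lbr the 4 mutant libraries all lie below the 4 control libraries, at -1.11 against 0.05 on average, and in the other 3 panels the groups overlap.

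Genes of sterol handling outside the set were counted in lists of their own. Over all genes tested, 13.2% rose and 13.0% fell, and no list was tested against these shares. In a list of sterol uptake, efflux and esterification genes, 4 of 19 tested rose and none fell, with a median log2 difference of 0.21. Lrp8, a lipoprotein receptor, averaged 1.122 ± 0.127 RPKM in mutant and 0.267 ± 0.026 RPKM in control libraries (SD, n = 4 each, log2 1.73, adjusted p = 3.26e-05 in limma). Ch25h, which hydroxylates cholesterol to an oxysterol, averaged 1.64 ± 0.92 RPKM in mutant and 0.308 ± 0.097 RPKM in control libraries (SD, n = 4 each, log2 1.99, adjusted p = 0.00216 in limma). Abca1, the cholesterol efflux pump, rose by 0.79 on the log2 scale (adjusted p = 0.00657), and Stard5, a sterol-binding carrier, by 0.35 (adjusted p = 0.00362). In a list of isoprenoid branches and sterol sensing machinery, 5 of 20 fell and none rose, with a median of -0.01. Tmem97, the sigma receptor that binds sterol intermediates, had a log2 difference of -0.41 (adjusted p = 0.00419). Pdss2 (-0.41) and Pdss1 (-0.39), the subunits that build the ubiquinone tail, and Nus1 (-0.31), a subunit of the dolichol synthase, fell as well.

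Lipid enzymes beyond the fatty acid arm were counted the same way, beside the same 13.2% of all genes that rose and 13.0% that fell. In a list of further fatty acid and acyl lipid synthesis genes, 13 of 35 tested fell and 2 rose, with a median log2 difference of -0.16. Dgat2, which makes triglyceride, averaged 15.1 ± 1.48 RPKM in mutant and 29.6 ± 0.82 RPKM in control libraries (SD, n = 4 each, log2 -0.98, adjusted p = 7.27e-05 in limma). Elovl2, an elongase of polyunsaturated chains, averaged 7.34 ± 0.60 RPKM in mutant and 15.6 ± 2.21 RPKM in control libraries (SD, n = 4 each, log2 -1.07, adjusted p = 0.000243 in limma). Acsl1, which activates fatty acids, fell by 1.14 (adjusted p = 0.0011), and Acss2, which activates acetate, by 0.67 (adjusted p = 0.00133) on the log2 scale. In a list of malic enzymes, an isocitrate dehydrogenase and pentose phosphate enzymes, 4 of 7 fell and none rose, with a median of -0.25. They were Me3 (-0.65, adjusted p = 0.000538), Idh1 (-0.64, adjusted p = 0.0021), Taldo1 (-0.38, adjusted p = 0.00968) and Tkt (-0.25, adjusted p = 0.0314). These are a mitochondrial malic enzyme, a cytosolic isocitrate dehydrogenase and the transaldolase and transketolase of the pentose phosphate pathway. The rest of that list went the other way without passing: Pgd (0.25, adjusted p = 0.0575 in limma), Me2 (0.09) and G6pdx (0.09).

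Markers of kidney cell types moved with genotype beside these results. Their counts stand beside 13.2% of all genes that rose and 13.0% that fell. All 7 proximal tubule markers fell, and their summed level was 157 to 225 RPKM in mutant and 1076 to 1266 RPKM in control libraries, with Slc34a1, Lrp2 and Slc5a2 lower by log2 values of -1.96, -1.43 and -2.57. Of 4 distal convoluted tubule markers 3 fell and 1 rose (Slc12a3 at a log2 difference of -3.27, Pvalb at -3.28 and Trpm6 at 0.64), with sums of 21.9 to 45.7 RPKM in mutant and 118 to 158 RPKM in control libraries. All 5 macrophage markers rose, among them Adgre1 by 1.25, Csf1r by 1.37 and C1qa by 1.93 on the log2 scale, with sums of 142 to 168 RPKM in mutant and 38.8 to 49.0 RPKM in control libraries. In endothelium 2 of 4 markers fell, with log2 differences of -0.53 for Pecam1, -0.39 for Cdh5 and -0.36 for Kdr, of which Pecam1 passed. The podocyte markers Nphs1 and Podxl fell, with log2 differences of -1.04 for Nphs1 and -0.75 for Podxl. Among general kidney epithelium markers 2 of 4 rose and 1 fell, with -0.77 for Cdh16, -0.27 for Pax2, which did not pass, and 0.24 for Pax8. None of 5 cycling cell markers passed, Mki67, Top2a and Ccnb1 having log2 differences of -0.11, -0.18 and 0.20. The part of these markers in the results on lipid synthesis was not tested.

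Cell types known for lipid or steroid synthesis were checked as well. Adrenal cortex markers were near 0, with Cyp11b1 at 0 reads in every library and a summed level of 1.14 to 1.74 RPKM in mutant and 0.998 to 1.33 RPKM in control libraries, and 1 of 4 tested, Mc2r, rose. Adipocyte markers stood high in some libraries of each genotype: Adipoq had 0.113, 5.12, 0.291 and 5.97 RPKM in mutant libraries, against 4.02, 0.273, 0.0105 and 0.522 RPKM in control libraries, and Plin1 and Cidec were high in the same 3 libraries. Of 7 adipocyte markers tested 1 rose (Lep, with 75 reads over mutant and 6 over control libraries) and 1 fell (Fabp4). Their sums, mostly Fabp4, were 245 to 279 RPKM in mutant and 299 to 534 RPKM in control libraries. Fabp4 did not follow Adipoq, at 405 RPKM in female control 1 and 233 RPKM in male mutant 2, though both were high in male control 1 (Fabp4 522 RPKM). The sums therefore do not track Adipoq. None of 5 hepatocyte markers passed, though Alb reached 37.3 RPKM in female mutant 2, against at most 1.77 RPKM in any other library. A fit without the 3 libraries high in Adipoq, chosen after these values were seen, left 2 mutant and 3 control libraries, and 17.3% of all genes passed. The mutants left were male mutant 1 and female mutant 1, and the controls left were male control 2, female control 1 and female control 2. Genotype is thus partly tied to replicate number and depth in that fit, and these cannot be told apart. In that fit 6 sterol genes fell and none rose, no fatty acid gene fell, and 2 regulators fell. Tm7sf2 (log2 -1.11, adjusted p = 0.0042), Ebp (-0.79, adjusted p = 0.00299), Nsdhl (-0.69, adjusted p = 0.00479), Acat2 (-0.74, adjusted p = 0.0037), Mvd (-0.38, adjusted p = 0.0399) and Stard4 (-0.53, adjusted p = 0.0158) remained lower, and so did Dhcr7 (-0.46, adjusted p = 0.0334). The calls of Mvk, Fdft1, Sc5d, Elovl6 and Me1 were lost in it, and Srebf1 passed (adjusted p = 0.0428).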

How the data were processed

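RNA-seq of poly(A) RNA from postnatal day 3 kidneys gave 8 libraries in 4 groups of 2 (genotype by sex). The authors deposited RPKM for 35976 genes with gene lengths. Reads were processed with STAR and featureCounts against mm10, per the submitters' processing notes, which give no versions. The sources used here give neither the annotation nor the strand and multi-mapping settings. RPKM times length gave whole reads for all 179720 nonzero values within 0.01, from which read counts and totals per library were recovered. The 18156 genes tested had 15 reads over all libraries and reached 0.2 reads per M reads in 2 or more of them. RPKM was divided by TMM scaling factors (trimming 0.3 of log ratios and 0.05 of mean levels), and log2 (scaled RPKM + 0.1) was fitted on genotype and sex with limma 3.58.1 under R 4.3.3, using robust, trended empirical Bayes variances, with Benjamini-Hochberg adjustment over all genes and a threshold of 0.05. The pseudocount understates changes of low genes. Tables were made in Python 3.11.15 and the fit was tested on simulated data. Depth limits the precision of genes with few reads; members had at least 149 reads in every library. Promoter letters come from RefSeq (GRCm38.p6) and overlaps from GENCODE on GRCm38. All 33 members are named, with up to 4 genes by lowest p of each further pathway list and the first markers of each cell type list. Members and lists were chosen with earlier results of these data known. Alternatives changed the pseudocount, filter, scaling, covariates, variance model, test and libraries.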

Additional observations from a re-analysis of the deposited data

Results flagged for a closer look

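Me1 in the control libraries was 13.2 RPKM in male control 1, against 16.0, 16.1 and 16.2 RPKM in the other 3 controls. The gap to the nearest control was 0.908 of the whole range, above Dixon's critical value for 4 samples. Among 66 groups of 4 libraries examined, this was the 1 that stood apart, and chance gives about 1 in 20. Without male control 1, the adjusted p of Me1 was 0.0145 in limma. The same library was also high in adipocyte markers (Adipoq 4.02 RPKM), whose part in the Me1 value was not tested.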

How the results depend on the processing

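Of 660 results for single members under the alternatives, 563 kept direction and side of the threshold, 57 were weaker, 8 stronger and 32 reversed; every reversed member was one that did not pass the test, and the causes were not tested. Called genes over the whole table, 4745 in all, numbered 3110 with replicate 2 alone and 3145 without the 3 adipocyte-marker libraries (17.3%). The latter fit sets mutant libraries of replicate 1 alone against controls of both replicate numbers, so genotype and replicate number are partly tied in it. Sterol genes that fell (7) numbered 4 with replicate 1 alone, 8 with a replicate block, and 5 to 8 with 1 library left out. They numbered 6 with no filter, with replicate 2 alone or without the adipocyte-marker libraries. Sterol genes that rose (2) numbered 1 with no filter, RPKM as deposited or no trend or robust options, 0 with either replicate number alone or without the adipocyte-marker libraries, and 1 to 2 with 1 library left out. Fatty acid genes that fell (2) numbered 1 with a pseudocount of 1, no filter, RPKM as deposited, median-ratio scaling, no trend or robust options or replicate 2 alone, 0 with replicate 1 alone or without the adipocyte-marker libraries, and 0 to 2 with 1 library left out. Regulators that fell (1) numbered 2 without sex, with a replicate block or without the adipocyte-marker libraries, 0 with replicate 1 alone, and 1 to 2 with 1 library left out. The log2 ratio difference of Scd1 over Scd2 (0.07) was -0.0696 with replicate 1 alone and -0.0122 without the adipocyte-marker libraries.

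Log2 differences reversed with replicate 1 alone for Idi1 (-0.00485), Hsd17b7 (0.0814), Srebf2 (0.0879), Scap (0.011), Fasn (0.123) and Fads1 (0.0478), and with replicate 2 alone for Sqle (-8.5e-06), Lss (-0.15), Msmo1 (0.0349) and Insig1 (0.000718). With RPKM as deposited Msmo1 was at 0.000251. Without the adipocyte-marker libraries Idi1 (-0.13), Sqle (-0.0535), Lss (-0.0652), Acaca (-0.23) and Fads2 (-0.12) were negative. With 1 library left out the ranges crossed 0 for Idi1 (-0.0613 to 0.0892), Sqle (-0.0172 to 0.106), Lss (-0.0865 to 0.0905), Msmo1 (-0.0427 to 0.0316), Insig1 (-0.297 to 0.0947), Fasn (-0.327 to 0.0151), Acaca (-0.022 to 0.295) and Fads1 (-0.146 to 0.0292).

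Samples that share a replicate number were not shown to be paired: deviations correlated between groups at -0.002745 to 0.379, with only 2 numbers. A replicate block called 5473 genes in place of 4745 and added Hmgcs1 (adjusted p = 0.0416) and Srebf1 (adjusted p = 0.031) among members. Of the 12 called genes, 7 (Acat2, Mvd, Tm7sf2, Nsdhl, Ebp, Sc5d and Stard4) passed in all 8 fits without 1 library. The planned count models edgeR and DESeq2 were not run. The deposited unit is RPKM, and of the methods for counts only limma-voom was run on the recovered reads. With 2 libraries per group, an interaction with sex of the size seen for Insig1 (0.92 ± 0.30 SE on the log2 scale) did not pass.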
